A study of Mus musculus with 5 samples.

Results

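The tumour necrosis factor (TNF) superfamily comprises cytokine ligands, most of them anchored in the membrane as trimers, and the receptors they bind. It was examined here in cells sorted from a blood-forming region of the mouse embryo that had received interferon-alpha (IFNa) or vehicle. Members were the rows of the deposited table whose gene symbol was Tnf, Fas, Fasl, Lta, Ltb, Ltbr, Cd27, Cd40, Cd40lg or Cd70, or began with Tnfsf or Tnfrsf and a number. This rule found 37 of 17756 gene symbols. They were 13 ligands, 23 receptors and Tnfsf13os, a non-coding transcript whose symbol carries the pattern but which encodes no ligand. Each member had 1 probe set in the deposited table that carried its symbol alone. Tnfrsf26, Tnfsf12, Tnfsf13, Tnfsf15 and Tnfsf18 were not analysed here, since no row carried their symbol alone.

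The cells came from C57Bl/6 embryos at E11.5, from the aorta-gonad-mesonephros (AGM) region, where the first definitive hematopoietic stem cells arise. Cells sorted as VE+CD45+, that is, positive for VE-cadherin and CD45, were kept in serum-containing medium. IFNa was added at 0.5 ng/ml (n = 3 arrays), or vehicle in its place (n = 2 arrays, numbered 2 and 3), for 4 hours, and the amplified RNA was hybridised to Affymetrix arrays. The labels name no genetic modification and call the replicates biological, without saying how many embryos each held.

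A TNF ligand clusters its receptors and brings their cytoplasmic tails together. Receptors with a death domain can recruit adaptors such as FADD and activate caspase-8. TRAF adaptors, which other receptors bind, feed the NF-kappaB and MAP kinase pathways, and some death domain receptors also reach these pathways. Decoy receptors bind ligand without a working signalling tail. TNF signalling has been linked to the emergence and survival of blood stem cells, macrophages are a main source of TNF, and the genes for TRAIL (Tnfsf10) and BAFF (Tnfsf13b) are known in other cells as type I interferon targets.

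Signals are given on the log2 scale of the deposited table. No detection calls were used, so no member could be called expressed or absent. Probe sets differ in how strongly they bind their target, so each member was placed only against the values of the whole table, whose 20th percentile was 3.22, median 5.05 and 90th percentile 9.61. Differences are IFNa minus vehicle from limma, with a moderated standard error (SE) and a Benjamini-Hochberg adjusted p over all 17756 genes. Over these genes Pearson's r was 0.924 to 0.955 between arrays of a group and 0.892 to 0.933 between groups, as a description across genes. The sort markers were measured above the table's median on all 5 arrays. Cdh5 (VE-cadherin) lay at 6.23 to 9.20 and overlapped between the groups, whereas Ptprc (CD45) read 5.85, 7.03 and 5.35 with IFNa against 7.23 and 8.95 with vehicle, lower on each IFNa array by -2.02 (adjusted p = 0.441, limma). All 12 macrophage markers examined were above the median too, with a mean of 10.93 to 11.34 on the IFNa arrays and 11.41 to 11.44 on the vehicle arrays. The macrophage marker Timd4 and the progenitor marker Cd34 were lower on each IFNa array as well, by -2.54 and -2.61 (adjusted p = 0.431 and 0.268, limma). Both had the lowest difference of their lists, in which other markers went the other way. Of the 12 macrophage markers 5 differed by more than 0 and 7 by less, with Mertk the highest at 0.82. Of 7 stem and progenitor markers 3 differed by more than 0 and 4 by less, with Kit the highest at 1.66. On all arrays 3 of these 7 were above the table's median. Of 8 endothelial markers 4 were above it on all arrays. Their differences ran from -2.23 (Esam) to 2.15 (Tek), with 2 above 0 and 6 below. The part of these markers' cell types in the members' values was not tested, and in bulk samples fewer cells of a type and less RNA per cell cannot be told apart.

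No member of the superfamily passed the threshold of an adjusted p under 0.05 in limma. The count was 0 of 37 members, against 0.135% of all genes (24 of 17756). At an unadjusted p under 0.05 in limma stood 2 members, Tnfrsf13b (TACI) and Tnfrsf4 (OX40), which is 5.41% of members against 10.0% of all genes. For 8 members no array of 1 group reached into the range of the other group, 2 with all IFNa arrays higher and 6 with all IFNa arrays lower. That is 21.6% of members, against 25.6% of all genes, so on each of these counts the members lay near or below the background. With each array centred on its own median the split was 3 higher and 4 lower, and that of all genes moved from 2043 higher and 2500 lower to 2627 and 1984. The median difference was -0.12 over the members, -0.02 over the ligands, -0.12 over the receptors and -0.04 over all genes. Of the members 25 were below 0 (67.6%, against 54.0% of all genes) and 12 above. With each array centred on its own median 20 were below and 17 above, and 46.3% of all genes were below. Without vehicle replicate 3 the members' counts were 18 and 19, and 46.9% of all genes were below. The difference was smaller than 0.5 for 26 of 37 members (70.3%, against 62.6% of all genes). The 95% interval lay within a 2-fold change in either direction for 6 members, so for the other 31 a change of that size in at least 1 direction was not excluded by these arrays.

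**Figure D1:**
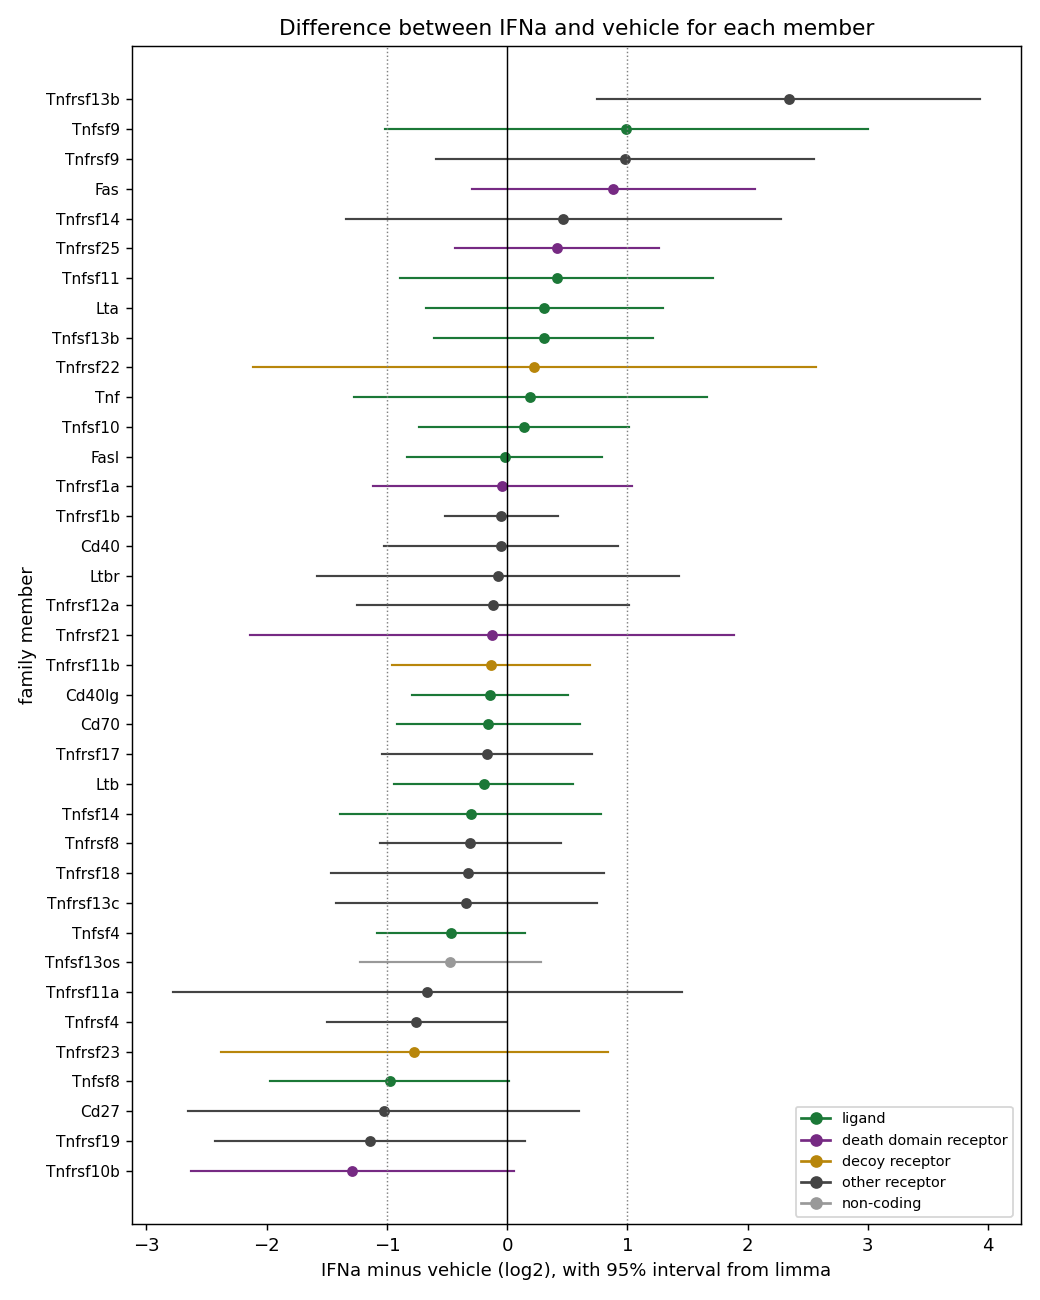
Difference between IFNa and vehicle for each of the 37 members (log2, horizontal axis), with the 95% interval from limma as a line and the role as the colour. Dotted lines mark a 2-fold change. Tnfrsf13b is at the top with 2.34, Tnfrsf10b at the bottom with -1.29, and 26 of the 37 points lie within 0.5 of 0.

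Where the members stood in the table differed widely. Of the 37, 14 were above the table's median on all 5 arrays, 12 were below it on all 5 and 11 lay on both sides. The corresponding share above the median on all arrays was 43.4% over all genes and 37.8% over the members. Tnfrsf1b alone was above the 90th percentile on every array. At the other end, the ligand genes Fasl, Ltb and Tnfsf4 were below the 20th percentile on every array, where the size of a difference is uncertain.

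**Figure D2:**
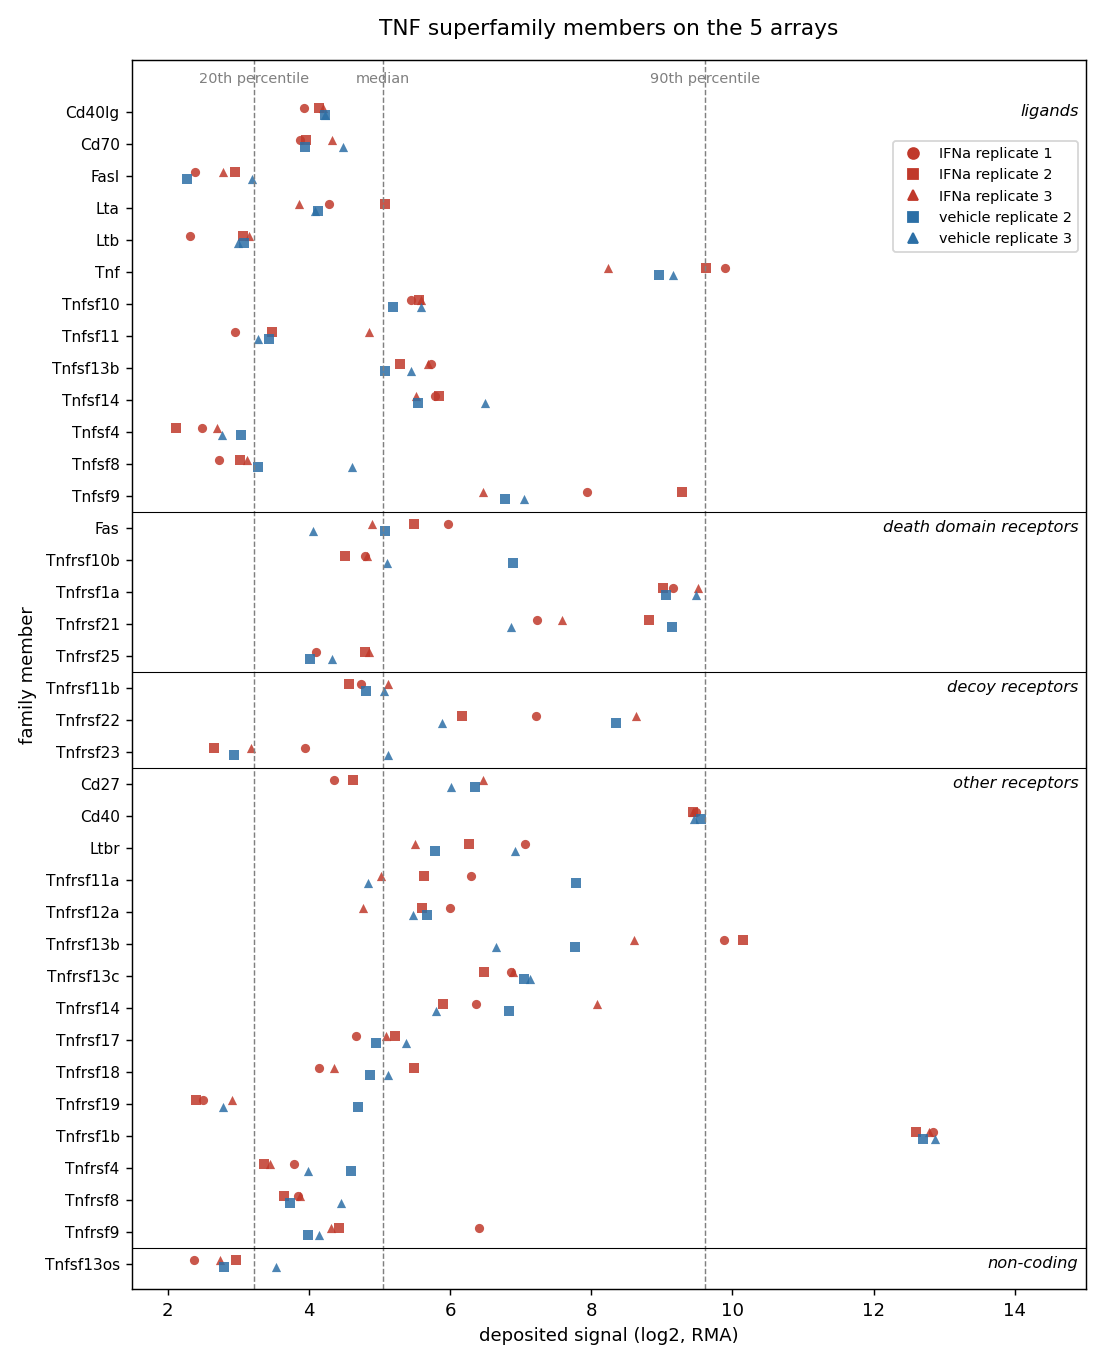
Signal of each member on each of the 5 arrays (log2, horizontal axis), grouped by role, with IFNa arrays in red and vehicle arrays in blue and the marker shape giving the replicate number. Dashed lines mark the 20th percentile, the median and the 90th percentile of the table. Tnfrsf1b, near 12.7, lies to the right of all lines, and Fasl, Ltb and Tnfsf4 lie to the left of the 20th percentile.

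Among the ligands, 5 of 13 were above the table's median on all arrays. These were Tnf, Tnfsf9 (4-1BB ligand), Tnfsf10 (TRAIL), Tnfsf13b (BAFF) and Tnfsf14 (LIGHT). Tnf, the founding cytokine of the family, read 9.89, 9.63 and 8.23 on the IFNa arrays and 8.96 and 9.16 on the vehicle arrays. IFNa replicates 1 and 2 were above both vehicle arrays and IFNa replicate 3 below them, so the groups overlapped. The difference was 0.19 ± 0.62 (SE; adjusted p = 0.965, limma), and it ran from -0.13 without IFNa replicate 1 to 0.70 without IFNa replicate 3. Tnfsf9, which costimulates T cells, likewise had IFNa replicates 1 and 2 above and replicate 3 below both vehicle arrays, at 7.94, 9.28 and 6.47 with IFNa against 6.77 and 7.04 with vehicle. Its difference was 0.99 ± 0.84 (SE; adjusted p = 0.796, limma), or 1.71 without IFNa replicate 3 and 0.30 without IFNa replicate 2. The receptor of this ligand, Tnfrsf9, is described with the other receptors.

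Tnfsf10 encodes TRAIL, a ligand that can trigger apoptosis through a death receptor. It read 5.45, 5.57 and 5.58 with IFNa and 5.20 and 5.59 with vehicle. All 5 arrays lay within 0.39 of each other and the groups overlapped. The difference was 0.14 ± 0.37 (SE; adjusted p = 0.956, limma), with an interval of -0.74 to 1.01.

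Tnfsf13b encodes BAFF, a survival factor for B cells that myeloid cells secrete. It read 5.73, 5.29 and 5.68 with IFNa and 5.08 and 5.45 with vehicle, so IFNa replicate 2 lay between the vehicle arrays. The difference was 0.30 ± 0.38 (SE; adjusted p = 0.883, limma), with an interval of -0.61 to 1.21. After centring each array on its median, all 3 IFNa arrays were above both vehicle arrays, as was the case for 14.8% of all genes.

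Promoter windows were examined for a DNA word that interferon-activated transcription factors are known to bind. The interferon-stimulated response element was taken as GAAA, any 2 bases and GAAA, and was searched on both strands in the RefSeq promoter table (GRCm38.p6), from 250 bases before to 50 after each gene start. It occurred in 3.44% of all 32851 windows. Windows were available for 28 of the 37 members (75.7%), too few for a share over the superfamily, so such a comparison is void. Among those with a window, Tnfrsf1b, Tnfrsf14, Tnfsf13b and Tnfrsf17 held the word. The 120 bases before a listed start of these 4 genes are shown because they carry the word, and those of Tnfrsf13b because it had the largest difference of the members. All but that of Tnfrsf1b lie inside the span of their gene in the RefSeq gene table, so they precede a start downstream of the gene's outermost one. Each is written 5′ to 3′ on the gene's strand, with the match in capitals.
Tnfsf13b, chr8:10006513-10006632, plus strand: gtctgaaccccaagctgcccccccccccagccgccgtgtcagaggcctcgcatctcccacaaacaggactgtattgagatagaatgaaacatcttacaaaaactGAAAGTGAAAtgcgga
Tnfrsf1b, chr4:145246871-145246990, minus strand: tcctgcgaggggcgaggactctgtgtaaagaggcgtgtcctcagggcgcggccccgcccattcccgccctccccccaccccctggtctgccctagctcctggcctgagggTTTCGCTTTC
Tnfrsf14, chr4:154928078-154928197, minus strand: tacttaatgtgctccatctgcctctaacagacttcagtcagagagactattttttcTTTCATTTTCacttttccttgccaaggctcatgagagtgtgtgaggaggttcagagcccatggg
Tnfrsf17, chr16:11313689-11313808, plus strand: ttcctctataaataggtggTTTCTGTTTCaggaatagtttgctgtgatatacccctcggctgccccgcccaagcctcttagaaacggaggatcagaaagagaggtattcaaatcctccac
Tnfrsf13b, chr11:61126635-61126754, plus strand: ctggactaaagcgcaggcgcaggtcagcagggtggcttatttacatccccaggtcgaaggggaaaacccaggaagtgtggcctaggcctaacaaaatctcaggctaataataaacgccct
The Tnfsf13b window belongs to the second of 2 starts listed for that gene, and the word ends 7 bases before it. A match is a description of letters and not a binding site, and the window of Tnfrsf13b, which does not hold the word, says nothing about the factor. The 4 genes with the word had differences of 0.30 (Tnfsf13b), -0.05 (Tnfrsf1b), 0.47 (Tnfrsf14) and -0.17 (Tnfrsf17), and none passed the threshold in limma.

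Of the remaining ligands, Tnfsf14 was above the table's median on all arrays, Lta lay on both sides of it and the others were below it. Tnfsf10 (5.20 to 5.59) and Tnfsf13b (5.08 to 5.73), described above, lay only just above that median of 5.05. Tnfsf14, which binds the herpesvirus entry mediator and the lymphotoxin receptor, ranged from 5.52 to 6.49 over the 5 arrays and differed by -0.30 ± 0.45 (SE). The lymphotoxin genes Lta (3.86 to 5.09) and Ltb (2.32 to 3.15), whose products direct the formation of lymphoid organs, differed by 0.31 ± 0.41 and -0.19 ± 0.31. Tnfsf11 encodes RANKL, the osteoclast differentiation factor, and ranged from 2.96 to 4.86 with IFNa replicate 3 the highest. Its difference was 0.41 ± 0.55 (SE), or -0.14 without that array. The T cell ligand genes Cd40lg (3.93 to 4.23) and Fasl (2.27 to 3.19) were below the table's median on all arrays, and so was Cd70 (3.88 to 4.48). Their differences were -0.14, -0.02 and -0.16. Tnfsf8 (CD30 ligand) read 2.73, 3.03 and 3.13 with IFNa against 3.28 and 4.61 with vehicle. All IFNa arrays were thus lower and below the 20th percentile, and the difference of -0.98 ± 0.42 (SE; adjusted p = 0.503, limma) was -0.31 without vehicle replicate 3 and -1.64 (adjusted p = 0.113, limma) without vehicle replicate 2. Tnfsf4 (OX40 ligand) was also lower on each IFNa array, at 2.12 to 2.70 against 2.77 and 3.04, below the 20th percentile on every array. After median centring the groups overlapped for Tnfsf4 and for Cd40lg, whose IFNa arrays had also all been lower. The non-coding Tnfsf13os ranged from 2.37 to 3.53.

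None of the 5 death domain receptors passed the threshold in limma. Tnfrsf1a encodes the widely expressed TNF receptor that can signal to survival or to death. It read 9.16, 9.01 and 9.51 with IFNa and 9.05 and 9.48 with vehicle, within 0.50 over all arrays and with overlapping groups. The difference was -0.04 ± 0.45 (SE; adjusted p = 0.990, limma). Fas, the receptor of Fas ligand and a trigger of apoptosis, read 5.97, 5.49 and 4.89 with IFNa and 5.08 and 4.06 with vehicle. IFNa replicates 1 and 2 were above both vehicle arrays, and IFNa replicate 3 lay between them. The difference of 0.88 ± 0.49 (SE; adjusted p = 0.639, limma) was 0.37 against vehicle replicate 2 alone and 1.40 against vehicle replicate 3 alone.

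Tnfrsf10b encodes the mouse TRAIL death receptor. It read 4.80, 4.52 and 4.82 with IFNa and 6.89 and 5.10 with vehicle. All IFNa arrays were lower than both vehicle arrays, an order that 2500 of the 17756 genes shared, and vehicle replicate 2 stood 1.79 above vehicle replicate 3. The difference was -1.29 ± 0.56 (SE; adjusted p = 0.520, limma), with an interval of -2.63 to 0.06. It was -0.39 against vehicle replicate 3 alone and -2.18 against vehicle replicate 2 alone, so its size depended on the vehicle array used. Tnfrsf21 (death receptor 6), which is known for its part in neurons and in T helper cells, ranged from 6.86 to 9.15. Its extremes were the vehicle arrays themselves, and its difference was -0.12 ± 0.84 (SE). Tnfrsf25 (death receptor 3), a T cell receptor, read 4.01 to 4.85 and differed by 0.41 ± 0.36 (SE).

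The 3 decoy receptors overlapped between groups. Tnfrsf11b (osteoprotegerin), the secreted decoy for RANKL, ranged from 4.57 to 5.12 and differed by -0.13 ± 0.34 (SE). The mouse TRAIL decoys Tnfrsf22 and Tnfrsf23 varied by more than 2 within the vehicle group. Tnfrsf22 read 7.22, 6.17 and 8.63 with IFNa and 8.35 and 5.88 with vehicle, and Tnfrsf23 read 3.94, 2.66 and 3.18 against 2.94 and 5.12. Vehicle replicate 2 was the higher vehicle array for the first and the lower for the second. These neighbouring genes are known as similar copies, and whether their probe sets share signal was not tested.

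Among the 23 receptors, Cd40 and Tnfrsf1b spanned the smallest range over the 5 arrays. Tnfrsf1b encodes the TNF receptor without a death domain that leukocytes and endothelium carry. It read 12.84, 12.60 and 12.78 with IFNa and 12.70 and 12.87 with vehicle, so all arrays lay within 0.28. The difference was -0.05 ± 0.20 (SE; adjusted p = 0.973, limma), and its interval of -0.52 to 0.42 excluded a 2-fold change in either direction. Cd40, a costimulatory receptor of antigen-presenting cells, read 9.48, 9.44 and 9.44 with IFNa and 9.56 and 9.45 with vehicle. All arrays lay within 0.12 of each other. The difference was -0.05 ± 0.41 (SE; adjusted p = 0.986, limma), where the SE also draws on the spread of other genes at that level and is wider than these 5 arrays alone. The direction of both turned with median centring, to 0.03 for each, and with repeated quantile normalization the differences were -0.24 for Tnfrsf1b and -0.34 for Cd40. The Cd40 probe set is of a kind that can match transcripts of more than 1 gene, and so are those of Tnfrsf21 and Tnfrsf12a.

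**Figure D3:**
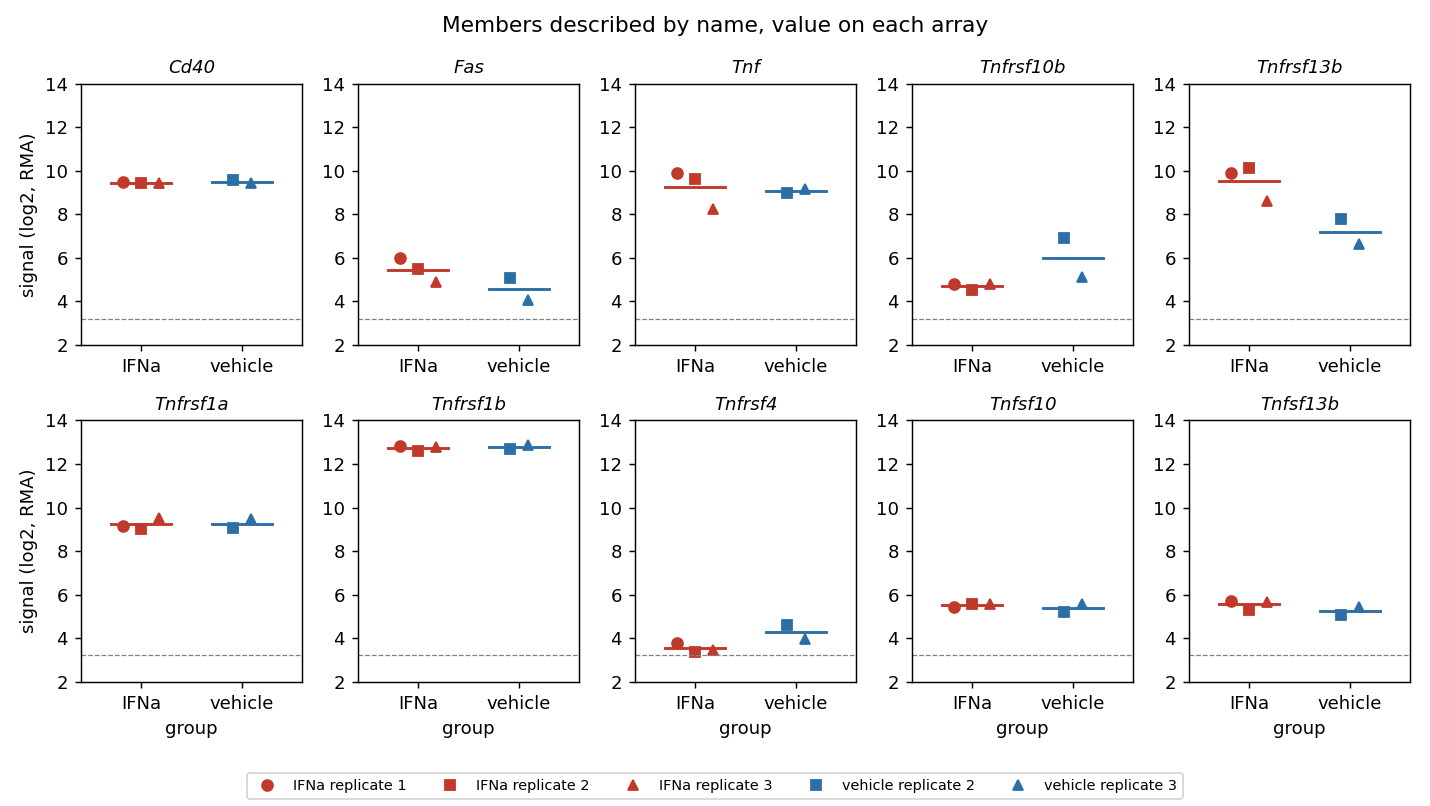
Signal on each array (log2, vertical axis) for the 10 members given in full, IFNa in red and vehicle in blue, with the group mean as a bar and the 20th percentile of the table as a dashed line. Tnfrsf13b is the panel in which all IFNa points stand above the vehicle points, Tnfrsf10b and Tnfrsf4 those in which they stand below, and the other 7 panels overlap.

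Tnfrsf13b showed the largest difference of the superfamily. It encodes TACI, a receptor of BAFF and APRIL on B cells and macrophages. It read 9.89, 10.15 and 8.61 with IFNa and 7.77 and 6.65 with vehicle, so every IFNa array was higher than both vehicle arrays, an order that 2043 of the 17756 genes shared. Means were 9.55 ± 0.82 (SD, n = 3) and 7.21 ± 0.79 (SD, n = 2). The difference of 2.34 ± 0.67 (SE), 5.06-fold, was not called (adjusted p = 0.337, limma). It lay between 1.78 and 2.90 when each array was left out. Over all 17 settings that were fitted its sign was the same and its adjusted p ran from 0.237 to 0.658 in limma.

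The partners of TACI had smaller differences. The other BAFF receptors, Tnfrsf13c (BAFF receptor) and Tnfrsf17 (BCMA, found on plasma cells), were at 6.48 to 6.89 against 7.05 and 7.13, and at 4.67 to 5.22 against 4.95 and 5.38. Tnfrsf13c was lower on each IFNa array, by -0.34 ± 0.45 (SE; adjusted p = 0.893, limma), and Tnfrsf17 overlapped at -0.17 ± 0.37 (SE). The ligand Tnfsf13b differed by 0.30. Of 8 lymphoid markers measured, 2 were above the table's median on all arrays and 2, Cd3e and Ncr1, were below its 20th percentile on all arrays. The mean of the list was 4.47 to 4.94 with IFNa and 4.91 to 5.12 with vehicle, and the B cell receptor genes Cd79a and Cd79b differed by -0.02 and -0.75. The 8 granulocyte and mast cell markers had means of 7.23 to 8.33 with IFNa and 6.94 to 7.09 with vehicle. Of these 8, 5 were above 0 and 3 below, the largest differences being 3.07 for S100a8, 1.15 for Prtn3 and 0.99 for S100a9. The part of these cell types in the Tnfrsf13b values was not tested.

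Tnfrsf4 (OX40), a costimulatory receptor of T cells, had the second smallest p of the members. It read 3.79, 3.37 and 3.45 with IFNa and 4.59 and 3.99 with vehicle, below the table's median on all arrays. Every IFNa array was lower. The difference was -0.75 ± 0.31 (SE; adjusted p = 0.493, limma), and -0.45 without vehicle replicate 2. Tnfrsf9 (4-1BB) was higher on each IFNa array, at 6.41, 4.43 and 4.31 against 3.99 and 4.14. IFNa replicate 1 stood apart from the other 4 arrays, and the difference of 0.98 ± 0.66 (SE; adjusted p = 0.714, limma) was 0.30 without it.

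The remaining receptors overlapped between the groups. Cd27, a receptor of lymphocytes and progenitors whose ligand is CD70, read 4.36, 4.63 and 6.47 with IFNa and 6.35 and 6.02 with vehicle, a difference of -1.03 ± 0.68 (SE) set by IFNa replicates 1 and 2. Tnfrsf11a (RANK), the receptor of RANKL on myeloid cells, read 6.29, 5.63 and 5.02 against 7.78 and 4.84. Its vehicle arrays lay on either side of the IFNa arrays, and its difference was -0.66 with all arrays, 0.81 against vehicle replicate 3 alone and -2.14 against vehicle replicate 2 alone. Tnfrsf14, the herpesvirus entry mediator, ranged from 5.80 to 8.08 with IFNa replicate 3 the highest, and Ltbr, the lymphotoxin receptor, from 5.51 to 7.06. Tnfrsf19 (TROY), a receptor best known from epithelium and brain, read 2.41 to 2.91 on the IFNa arrays and 4.70 and 2.79 on the vehicle arrays, with a difference of -1.14 ± 0.54 (SE; adjusted p = 0.555, limma) that was -0.18 without vehicle replicate 2. Without vehicle replicate 3 it was -2.09 (adjusted p = 0.0824, limma). It was below the 20th percentile on 4 of 5 arrays, and with values floored at that percentile the difference was -0.74. Tnfrsf12a (4.77 to 6.00), the receptor of TWEAK, differed by -0.12, Tnfrsf18 (GITR, 4.14 to 5.48), a receptor of regulatory T cells, by -0.33, and Tnfrsf8 (CD30, 3.64 to 4.45) by -0.31.

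A spread of more than 1 within a group was found for more receptors than ligands, a difference that was not tested. The 2 vehicle arrays differed by more than 1 for 10 of 23 receptors (43.5%) and 1 of 13 ligands (7.69%), against 23.3% of all genes. The 3 IFNa arrays spanned more than 1 for 12 receptors (52.2%) and 4 ligands (30.8%), against 34.8% of all genes. When single arrays were left out, the difference changed sign for 20 of the 37 members (54.1%, against 46.5% of all genes), and 0 members passed the threshold in any of these 5 fits in limma. Leaving out 1 vehicle array leaves a lone one, whose spread is taken to equal that of the IFNa arrays.

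**Figure D4:**
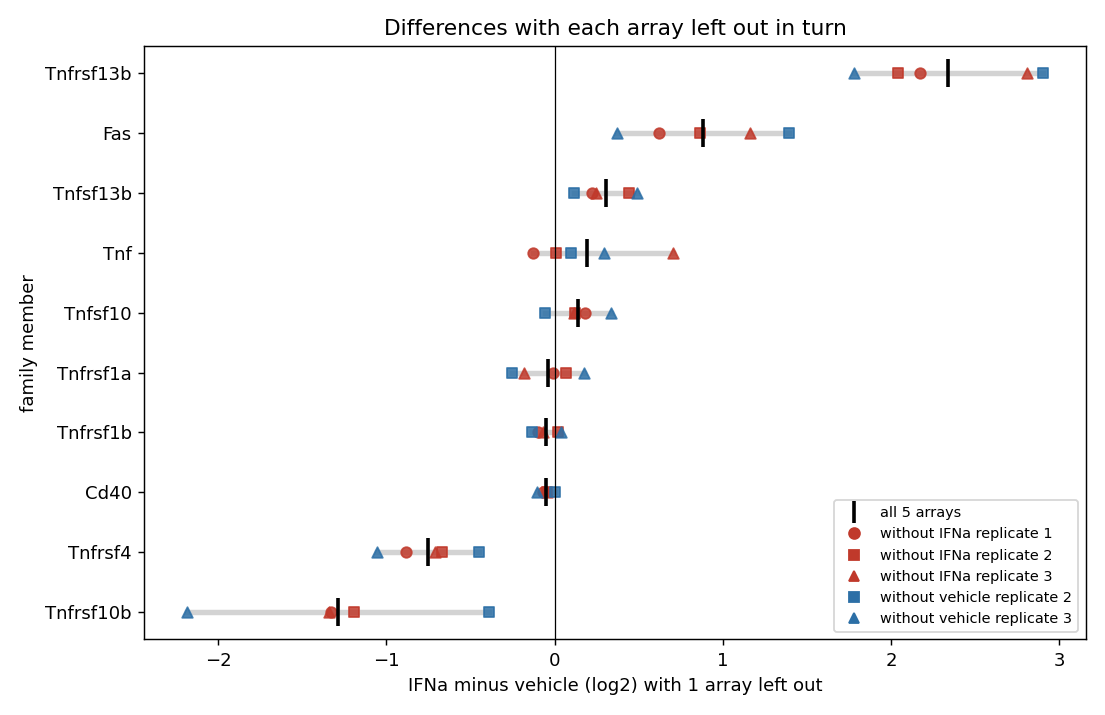
Difference between IFNa and vehicle (log2, horizontal axis) for the 10 members given in full, with all arrays as a black bar and with each array left out as a coloured marker. Tnfrsf13b stays between 1.78 and 2.90, whereas Tnfrsf10b ranges from -2.18 to -0.39 depending on the vehicle array left out.

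Downstream of the receptors, 33 of 38 listed adaptors, kinases, ubiquitin enzymes and NF-kappaB genes were measured, and 0 passed the threshold in limma. At an unadjusted p under 0.05 in limma stood 6 of the 33 (18.2%, against 10.0% of all genes), 3 higher and 3 lower, and the groups did not overlap for 14 (42.4%, against 25.6%). The part of signal level in these shares was not tested. Of the 33 genes, 75.8% were above the table's median on all arrays, against 43.4% of all genes. The median difference was 0.01, with a range of -2.26 to 2.47. Fadd, the adaptor that joins death receptors to caspase-8, read 11.98, 10.12 and 13.25 with IFNa and 9.96 and 8.67 with vehicle. Every IFNa array was higher, and the difference was 2.47 ± 0.91 (SE; adjusted p = 0.438, limma), or 1.73 without IFNa replicate 3 and 3.30 without IFNa replicate 2. Birc2 (cIAP1), a ubiquitin ligase that restrains death signalling, was also higher on each IFNa array, at 8.92 to 9.36 against 8.23 and 7.08. Its difference was 1.46 ± 0.54 (SE; adjusted p = 0.441, limma), or 0.89 against vehicle replicate 2 alone and 2.04 against vehicle replicate 3 alone. Cyld, a deubiquitinase that dampens NF-kappaB, was lower on each IFNa array, at 1.58, 0.76 and 1.05 against 1.80 and 4.97. It lay below the 20th percentile on 4 of 5 arrays, and its difference of -2.26 ± 0.84 (SE; adjusted p = 0.440, limma) was -3.84 without vehicle replicate 2, where it passed the threshold (adjusted p = 0.0156, limma), and -0.67 without vehicle replicate 3. With values floored at the 20th percentile it was -0.88 (adjusted p = 0.657, limma). The feedback inhibitors Nfkbia and Tnfaip3 (A20), which TNF is known to induce, were above the table's 90th percentile on all arrays, at 13.75 to 14.24 and 11.13 to 11.67. Their differences were 0.01 ± 0.20 and -0.16 ± 0.31 (SE).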

How the data were processed

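The authors deposited log2 signals per probe set, for which the submitters' processing notes name RMA, a method that corrects background, normalizes arrays and summarises probes. Its software and settings are not given in the labels used here. The signals spanned -1.95 to 15.6; RMA rarely gives negative values, so differences at the low end have an uncertain size. Of 20881 rows, 17838 had 1 gene symbol on the platform annotation, 244 several and 2799 none; for 81 of 17756 symbols the row with the highest mean was used. All 37 members matched the RefSeq gene table by identifier and symbol. The 5 arrays were grouped by title; no pair held identical values. IFNa was compared with vehicle by limma 3.58.1 in R 4.3.3 (lmFit, eBayes with a mean-variance trend), two-sided, without a block, called at an adjusted p under 0.05. The fit was run on simulated data drawn from its own variance model, which checks the code and not the power in these arrays. The number of arrays limits the precision.

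The superfamily and the gene lists were chosen with earlier results of these data known. Given in full were members that were called, had an unadjusted p under 0.05, did not overlap with a difference of at least 1, or lay above the 90th percentile on all arrays, and 8 fixed by name as interferon or death receptor genes (Tnfsf10, Tnfsf13b, Fas, Cd40, Tnfrsf10b, Tnf, Tnfrsf1a, Tnfrsf1b). Of the signalling genes, the 3 with the smallest p were named; Nfkbia and Tnfaip3 were chosen after their values were seen. Other members are given as parts of the superfamily. Alternatives covered probe choice, low values, variance, normalization, a replicate block, each array left out and an adjusted p under 0.1.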

Additional observations from a re-analysis of the deposited data

How the results depend on the processing

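The superfamily held 0 called members in limma under each of the 17 settings fitted and in the fit of all arrays at an adjusted p under 0.1 (Tnfrsf19 was at 0.0824 without vehicle replicate 3), with 1 to 4 members at an unadjusted p under 0.05. Over all genes 3 were called higher and 21 lower, which set the background. Genes above the median level gave 1 and 0, values floored at the 20th percentile 0 and 0 (1494 at an unadjusted p under 0.05), no variance trend 1 and 2, and an adjusted p under 0.1 gave 19 and 43; the cause was not tested. Without single arrays the counts were 0 to 37 and 0 to 144. Same-numbered arrays deviated with correlations of 0.0024 and 0.043, and the random replicate block had a consensus correlation of 0.118. The deviations of the 2 vehicle arrays mirror each other, so these values cannot decide whether a number marks a shared origin. With the number as a fixed replicate block the counts were 0 and 0 (with 1441 genes at an unadjusted p under 0.05 in limma). IFNa replicate 1 has no vehicle partner, so the differences of that fit equal those without IFNa replicate 1. As a random block 9 genes were called higher and 27 lower. The members' median ranged from -0.18 to 0.03 and the ligands' from -0.14 to 0.28 over single arrays left out, the latter value without vehicle replicate 3; counting Tnfsf13os as a ligand, chosen after seeing the data, gave -0.08. Signs turned for members near 0 and also for some with larger differences. Over the settings fitted, Tnfrsf11a (-0.66 with all arrays) ranged from -2.14 to 0.81 and Tnfrsf23 (-0.77) from -1.86 to 0.32. Median centring gave 0.030 for Cd40, 0.042 for Tnfrsf1a and 0.034 for Tnfrsf1b, and repeated quantile normalization moved them to -0.336, -0.322 and -0.242. Tnf was -0.060 with repeated quantile normalization and -0.13 with the fixed block. With arrays left out Cd40 ranged from -0.11 to 0.0015, Tnf from -0.13 to 0.70, Tnfrsf1a from -0.26 to 0.17, Tnfrsf1b from -0.13 to 0.035 and Tnfsf10 from -0.057 to 0.34. Called lower signalling genes numbered 0 to 1, the 1 being Cyld (-3.84 to -0.67). Fasl, Ltb and Tnfsf4 could not be tested with the floor.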

Other observations

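Several members are neighbours in the genome with no protein-coding gene between them, and their differences between IFNa and vehicle are set side by side here. In the TNF locus, which lies among the genes of the major histocompatibility complex, Ltb, Tnf and Lta differed by -0.19, 0.19 and 0.31 on the log2 scale, and Tnf alone was above the table's median on all 5 arrays. In the row of ligand genes Tnfsf9, Cd70 and Tnfsf14 the differences were 0.99, -0.16 and -0.30. The adjacent receptor genes Tnfrsf4 and Tnfrsf18, which both costimulate T cells, differed by -0.75 and -0.33, and Tnfrsf1b and Tnfrsf8 by -0.05 and -0.31. None of these differences passed the threshold in limma, and their SEs ran from 0.20 (Tnfrsf1b) to 0.84 (Tnfsf9). Whether neighbours differed from each other was not tested.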
